A study of Mus musculus with 5 samples.

Results

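The genes described here are the core of the NF-κB pathway: 5 transcription factor subunits (Rela, Nfkb1, Nfkb2, Rel and Relb), the inhibitors Nfkbia, Nfkbib and Tnfaip3, and the kinase complex genes Ikbkb and Ikbkg. They were taken by name, through the GENCODE M21 symbols of the deposited Ensembl identifiers. All 10 were found among the 39179 genes of the count table, and all 10 passed the filter on low counts that left 13000 genes for testing. The cells were TER119-positive erythroid cells sorted from the fetal liver of C57BL/6 mice at 14.5 days post conception. The 2 KO libraries (Csnk2b fl/fl Vav+/Cre) came from embryos in which both copies of Csnk2b, the gene of the regulatory subunit of the protein kinase CK2, are floxed. The 3 control libraries (Csnk2b+/+ Vav+/Cre) carry the same Cre transgene, which is driven by the pan-hematopoietic Vav1 promoter, with intact Csnk2b. The titles give each library an embryo and a number without saying whether embryos were pooled, so p-values speak for the variation among these libraries, which may be technical.

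NF-κB subunits work as dimers. In resting cells they are held in the cytoplasm by IκB proteins such as the product of Nfkbia, or by the unprocessed precursors that Nfkb1 and Nfkb2 encode. Receptors of tumour necrosis factor, interleukin 1 and microbial products activate the IκB kinase (IKK) complex, made of the kinases encoded by Chuk and Ikbkb and the ubiquitin-binding scaffold NEMO encoded by Ikbkg. IKK marks IκB for destruction, and the freed dimers switch on genes that include their own inhibitors. CK2 is known, mainly from studies of human and mouse cell lines, to phosphorylate both IκBα and the RelA protein, which links the deleted gene to this pathway at the protein level; these libraries measure RNA only.

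RefSeq promoter windows on GRCm38.p6, which run from 250 bases before to 50 bases after a start site, matched 7 of the 10 genes by symbol and gave 13 windows. The NF-κB binding motif in the form GGG, any 2 bases, then TTTCC, searched on both strands, was found in 6 of these windows, which belong to Nfkb2, Rel, Nfkbia and Tnfaip3; 2 of the Nfkb2 windows overlap and hold the same match. Of all 32851 windows, 1.63% held it. The broader κB consensus was found in the windows of the same 4 genes and in 8.46% of all windows. The windows of Rela, Nfkbib and Ikbkg held neither. The stretches of 60 bases around the matches are printed because Nfkb2, Rel, Nfkbia and Tnfaip3 are known targets of the factor; a match is a description of these letters, not a measured binding site. Each is given 5′ to 3′ on the strand of its gene with the match in capitals; in Rel, Nfkbia and Tnfaip3 the motif lies on the opposite strand, so the capitals show its reverse complement.
Nfkb2, chr19:46304701-46304760, plus strand: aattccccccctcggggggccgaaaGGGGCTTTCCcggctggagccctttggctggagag
Nfkb2, chr19:46305680-46305739, plus strand: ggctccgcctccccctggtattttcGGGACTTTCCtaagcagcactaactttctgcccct
Rel, chr11:23771026-23771085, minus strand: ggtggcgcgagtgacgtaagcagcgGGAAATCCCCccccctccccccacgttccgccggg
Nfkbia, chr12:55492642-55492701, minus strand: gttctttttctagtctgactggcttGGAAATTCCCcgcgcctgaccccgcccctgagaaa
Tnfaip3, chr10:19015388-19015447, minus strand: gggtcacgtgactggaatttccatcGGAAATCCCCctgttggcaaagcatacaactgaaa

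The libraries held 13187094 to 15366021 counts, so that 1 CPM (the count scaled to a TMM-adjusted library size) stood for 13.01 to 15.5 counts. Csnk2b, the targeted gene, was at 112 and 95.6 CPM in the KO libraries and at 186, 186 and 169 CPM in the controls, 1.74-fold lower in KO (edgeR adjusted p = 0.0018); the counts cover the whole gene, floxed and unfloxed exons alike. Of 13 erythroid markers 12 were matched, and they summed to 61687 and 79156 CPM in KO and to 68386 to 84452 CPM in controls, with 0 called, beside 3 at an unadjusted edgeR p under 0.05. Of 13 macrophage markers tested, 5 fell, beside 1.83% of all genes, and all 13 had a fold change below 1. An unadjusted edgeR p under 0.05 was found for 11 of them, beside 23.8% of all genes. The macrophage markers summed to 98.7 and 105 CPM in KO against 133 to 146 CPM in controls. Cd163 was at 0 to 0.077 CPM in every library. Lymphoid markers summed to 6.74 and 8.76 CPM in KO and to 8.08 to 10.7 CPM in controls, with the T cell genes Cd3e and Cd3d at 0 in every library. In edgeR 0 genes were called among the lymphoid, granulocyte, megakaryocyte, hepatocyte and endothelial markers. In that order of lists, 0 of 4, 4 of 11, 2 of 5, 0 of 9 and 2 of 6 tested genes had an unadjusted edgeR p under 0.05. Of all 13000 genes tested, 6.98% were called and 23.8% had an unadjusted edgeR p under 0.05. Summed over 4 Y-linked genes, control replicate 3 had 1142 counts and each of the other libraries 1 or 2.

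KO cells held slightly less Ikbkg RNA than control cells, and no other of the 10 genes passed the test. Ikbkg was 1.23-fold lower in KO, while 8 of the other 9 genes had fold changes above 1 and Rela was level to within the error. Of the 10 genes, 1 fell and 0 rose at an adjusted p below 0.05, and 1 had an unadjusted p under 0.05, which 23.8% of all tested genes had. Among all 13000 genes tested, 1.83% fell and 5.15% rose, 6.98% in all, so a single call among 10 genes is near the background. Fold changes above 1 were found in 8 of the 10 genes and in 52.5% of all genes. The KO libraries lay above all controls in 4 genes (Nfkb1, Nfkbia, Tnfaip3 and Ikbkb), against a background of 21.9%, and below all controls in 1 gene (Ikbkg), against a background of 19.3%; together, 5 of 10 genes did not overlap between the groups, beside 41.2% of all genes. The median log2 fold change of the 10 genes was 0.15, beside 0.01 over all genes tested. Without control replicate 1, 2 or 3 in turn, none of the 10 genes passed. In bulk RNA of sorted cells, fewer cells of a type and less RNA per cell cannot be told apart.

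**Figure D1:**
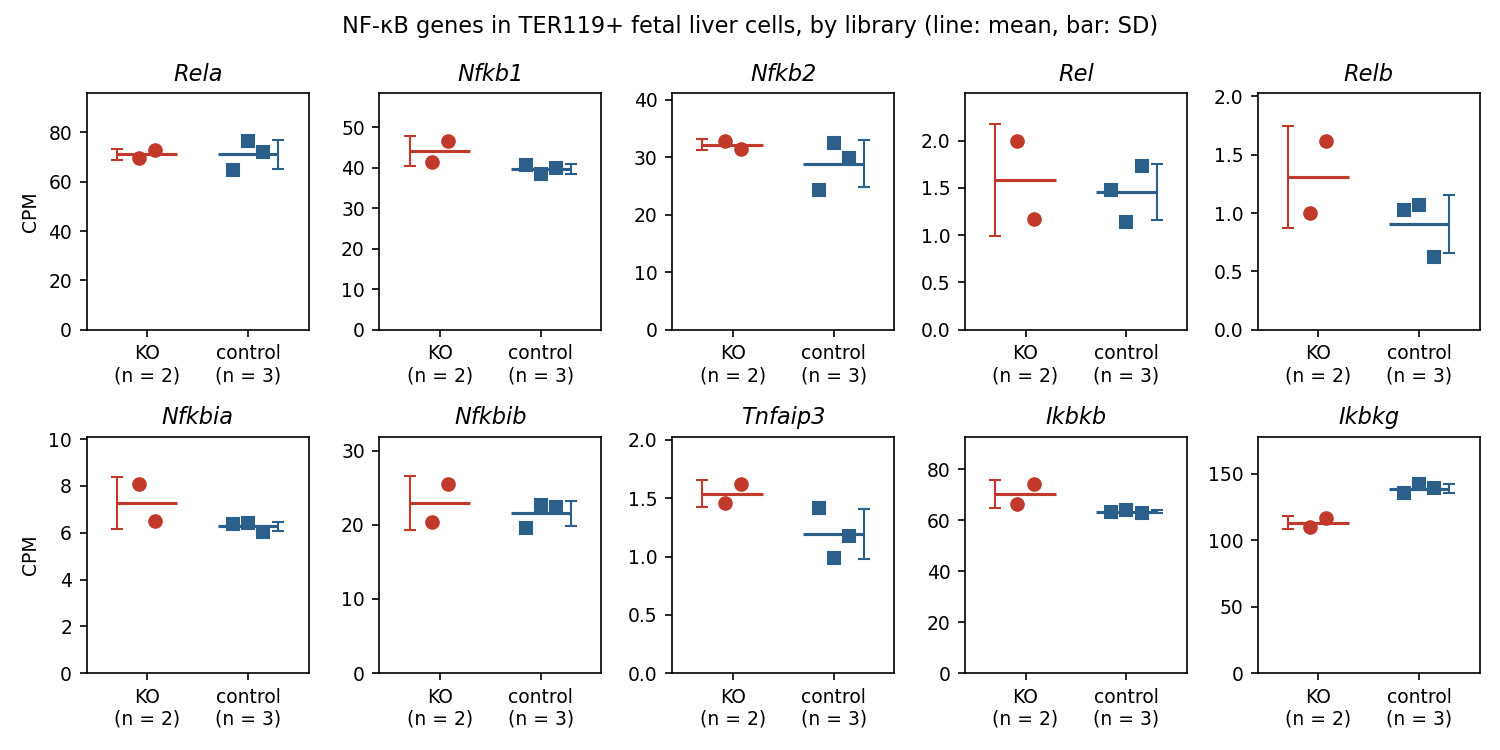
Level of each NF-κB gene (CPM) in the 2 KO libraries (red circles) and the 3 control libraries (blue squares); lines are group means and bars are SD, and each axis starts at 0. The groups part below for Ikbkg, at 109.6 and 117 CPM in KO against 135 to 142 CPM in controls, and part by less in Nfkb1, Nfkbia, Tnfaip3 and Ikbkb.

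Rela encodes RelA (p65), the main activating subunit, and was the most abundant subunit transcript. Rela (ENSMUSG00000024927, chromosome 19) stood at 69.5 and 72.7 CPM in KO replicates 1 and 2 and at 64.85, 76.6 and 72.1 CPM in control replicates 1, 2 and 3. The KO values lay inside the control range. Its mean was 71.1 CPM ± 2.28 (SD, n = 2) in KO and 71.2 CPM ± 5.92 (SD, n = 3) in controls. The log2 fold change was -0.00027 with a 95% interval of -0.20 to 0.20 (edgeR adjusted p = 0.999), which leaves room for a change of up to 1.147-fold in either direction.

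Nfkb1 encodes p105, which is processed to the DNA-binding subunit p50. Nfkb1 (ENSMUSG00000028163, chromosome 3) was at 41.4 and 46.7 CPM in KO libraries and at 40.7, 38.3 and 40.0 CPM in controls. Both KO values exceeded every control, the lower of them by less than the spread among controls. The log2 fold change was 0.15 ± 0.08 (SE), with a 95% interval of -0.04 to 0.34 and an edgeR adjusted p of 0.32, and 0.06 without KO replicate 2. Nfkb2 encodes p100, the precursor of p52 and an inhibitor of RelB dimers in the non-canonical branch. Nfkb2 (ENSMUSG00000025225, chromosome 19) was at 32.9 and 31.5 CPM in KO libraries and at 24.4, 32.5 and 29.8 CPM in controls. The groups overlapped, control replicate 1 being the low library. Its log2 fold change was 0.16 ± 0.12 (SE; edgeR adjusted p = 0.47), and 0.05 without control replicate 1. Nfkb2 shares 299 bases of exon with Psd on the opposite strand. The strand setting of the counting is not known here; Psd stood at 14.4 CPM in KO and 12.1 CPM in controls.

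Rel and Relb were near the limit of what these libraries can measure. Rel (ENSMUSG00000020275, chromosome 11), which encodes c-Rel, a subunit best known from lymphoid and myeloid cells, had 26 and 18 counts in KO libraries and 23, 15 and 25 counts in controls. That is 2.00 and 1.17 CPM in KO against 1.48, 1.14 and 1.73 CPM in controls, with overlapping groups. The log2 fold change of 0.09 had a 95% interval of -0.56 to 0.74 (edgeR adjusted p = 0.89) and was -0.35 without KO replicate 1. Relb (ENSMUSG00000002983, chromosome 7), the non-canonical partner of p52, had 13 and 25 counts in KO libraries and 16, 14 and 9 counts in controls. At 1.00 and 1.62 CPM in KO against 1.03, 1.07 and 0.624 CPM in controls the groups overlapped. A log2 fold change of 0.55 had a 95% interval of -0.16 to 1.26 (edgeR adjusted p = 0.32), so that no difference and a rise of up to 2.40-fold both lie inside it at this depth; the value was 0.81 without KO replicate 1, 0.14 without KO replicate 2 and 0.34 without control replicate 3.

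Per length of the principal transcript, Rela made up more than all other subunits together. The sum of the 5 subunit transcripts was 46.8 and 49.0 CPM per kb in KO libraries and 42.2, 48.5 and 46.3 CPM per kb in controls. Rela took 54.6% of that sum in both KO libraries and 56.6%, 58.2% and 57.4% in controls. The Rela share was thus lower in both KO libraries than in any control, by a margin larger than the control range. Rela CPM itself overlapped between the groups, with a log2 fold change of -0.00027, and a share depends on all 5 transcripts. No background was computed for shares, but in CPM 41.2% of all tested genes did not overlap between the groups. Nfkb1 took 21.5% and 23.1% in KO and 19.2% to 23.4% in controls, and Nfkb2 took 22.4% and 20.5% in KO and 18.4% to 21.3% in controls. Rel and Relb each took at most 1.496% in any library. These shares use 1 transcript length per gene and are a description with no test.

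**Figure D2:**
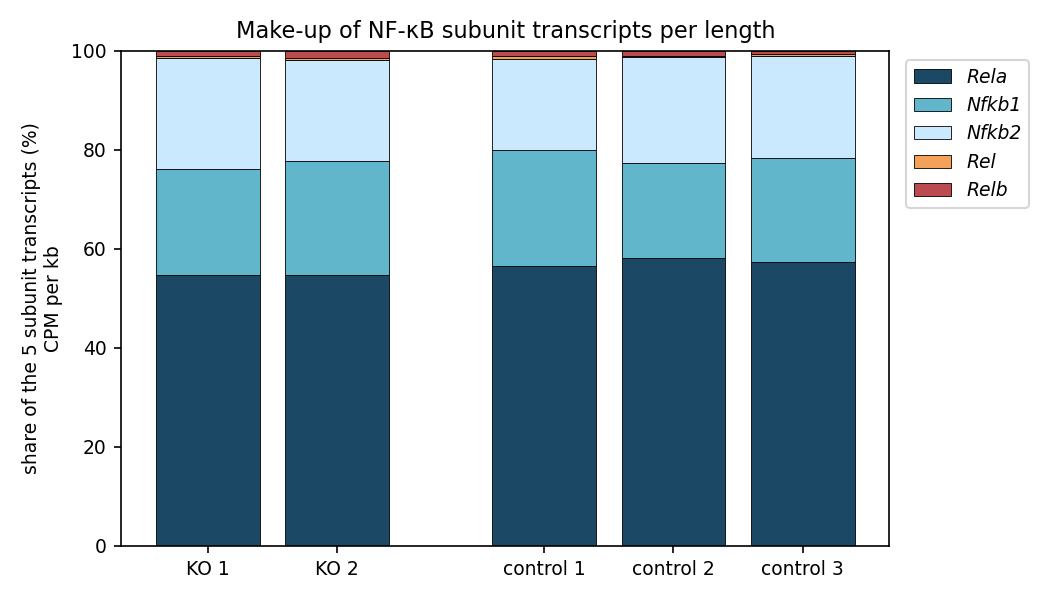
Share of each subunit in the summed subunit transcripts per length (percent of CPM per kb) in the 2 KO and 3 control libraries, one bar per library. Rela fills 54.6% of both KO bars and 56.6% to 58.2% of the control bars, and Rel and Relb are the thin bands at the top.

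Nfkbia encodes IκBα, the classic inhibitor that NF-κB switches on to end its own response, and its promoter stretch is printed above. Nfkbia (ENSMUSG00000021025, chromosome 12) was at 8.07 and 6.48 CPM in KO libraries and at 6.37, 6.40 and 6.03 CPM in controls. Both KO libraries lay above the controls, but KO replicate 2 hardly so, and KO replicate 1 was the high library. The log2 fold change was 0.21 ± 0.15 (SE), with a 95% interval of -0.13 to 0.55 (edgeR adjusted p = 0.44), and 0.03 without KO replicate 1. Nfkbib encodes IκBβ, a slower inhibitor of the same dimers. Nfkbib (ENSMUSG00000030595, chromosome 7) was at 20.4 and 25.5 CPM in KO libraries and at 19.6, 22.6 and 22.4 CPM in controls. The KO libraries fell on either side of 2 of the controls, and the log2 fold change was 0.10 ± 0.12 (SE; edgeR adjusted p = 0.68). Nfkbib shares 42 bases of exon with Sirt2 and 314 with Ccer2, both on the opposite strand; Ccer2 had 0 counts in every library.

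Tnfaip3 encodes A20, a ubiquitin-editing enzyme that shuts off signalling above IKK and is itself an NF-κB target. Tnfaip3 (ENSMUSG00000019850, chromosome 10) had 19 and 25 counts in KO libraries and 22, 13 and 17 counts in controls. That is 1.46 and 1.62 CPM in KO against 1.42, 0.991 and 1.18 CPM in controls. Both KO libraries were above the controls by a margin smaller than the spread of either group. Its log2 fold change of 0.36 had a 95% interval of -0.17 to 0.88 (edgeR adjusted p = 0.47). The edgeR folds, KO over control, of the 4 genes with a match to the motif were 1.12 for Nfkb2, 1.06 for Rel, 1.16 for Nfkbia and 1.28 for Tnfaip3, and none passed the test in edgeR, whose unadjusted p-values for them were 0.20 to 0.76.

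Ikbkg, the scaffold of the IKK complex, was the gene that passed. Ikbkg (ENSMUSG00000004221, chrX:74393290-74453854, plus strand, GENCODE M21 on GRCm38) was at 109.6 and 117 CPM in KO libraries and at 135, 142 and 139 CPM in controls. Every KO value lay below every control, and the gap between the groups was wider than the range within either. The mean was 113 CPM ± 4.98 (SD, n = 2) in KO and 139 CPM ± 3.43 (SD, n = 3) in controls. The log2 fold change was -0.29 ± 0.07 (SE), with a 95% interval of -0.45 to -0.14 and an edgeR adjusted p of 0.037. Without control replicate 1, 2 or 3 the log2 fold change was -0.31, -0.28 and -0.29, but the adjusted p was 0.11, 0.15 and 0.15. Ikbkg is X-linked; control replicate 3, the library with Y-linked counts, lay between the other 2 controls. The macrophage markers were lower in the same KO libraries, and their part in the Ikbkg difference was not tested.

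Ikbkb and Chuk, the catalytic subunits of the same complex, lay above the controls in both KO libraries without passing the test. Ikbkb (ENSMUSG00000031537, chromosome 8), which encodes IKKβ, was at 66.6 and 74.1 CPM in KO libraries and at 63.3, 63.9 and 62.9 CPM in controls. Both KO libraries were above the tightly grouped controls, and the log2 fold change was 0.15 ± 0.08 (SE), with a 95% interval of -0.02 to 0.32 (edgeR adjusted p = 0.27), and 0.07 without KO replicate 2. Chuk, which encodes IKKα, was at 77.4 and 75.4 CPM in KO libraries and at 71.0, 66.3 and 67.9 CPM in controls, with a log2 fold change of 0.16 ± 0.07 (SE; edgeR adjusted p = 0.22). The scaffold and its kinases thus lay on opposite sides of the controls, a difference that was not itself tested. KO libraries lay above all controls in 21.9% of all tested genes and below them in 19.3%. Chuk was picked after its values were seen. The ratio of Ikbkg to Ikbkb CPM was 1.65 and 1.57 in KO libraries and 2.14, 2.22 and 2.21 in controls, with no overlap; this ratio was formed after the values were seen and was not tested.

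**Figure D3:**
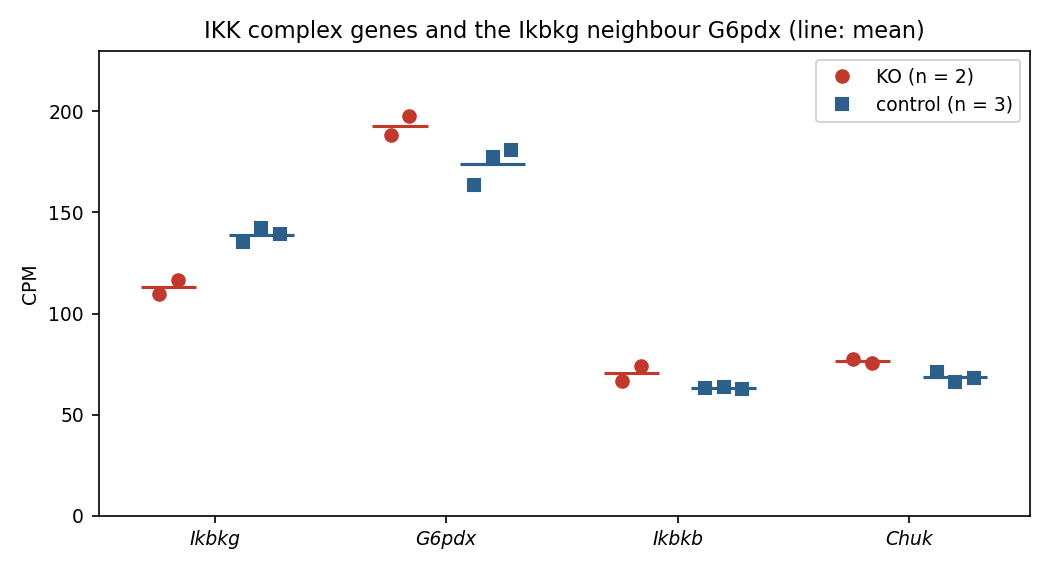
Level (CPM) of the IKK scaffold gene Ikbkg, its overlapping neighbour G6pdx and the IKK kinase genes Ikbkb and Chuk in the 2 KO (red circles) and 3 control (blue squares) libraries, with lines at group means. Ikbkg is lower in both KO libraries than in any control, whereas G6pdx, Ikbkb and Chuk are higher in both.

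The annotated Ikbkg gene overlaps 19712 bases of G6pdx, which is transcribed from the opposite strand. G6pdx encodes glucose-6-phosphate dehydrogenase, which supplies NADPH in red cells. The internal Ikbkg promoter, not the start of the annotated gene, lies head to head with G6pdx. The 2 genes share 418 bases of exon, so reads of that stretch cannot be assigned without strand. G6pdx was at 188 and 198 CPM in KO libraries and at 164, 178 and 181 CPM in controls, with a log2 fold change of 0.15 ± 0.07 (SE; edgeR adjusted p = 0.25). G6pdx lay above every control in both KO libraries, an order that 21.9% of all tested genes show, and it did not pass the test. How the shared stretch was counted, and its part in the lower Ikbkg count, was not tested. The internal Ikbkg promoter window is printed for this arrangement, with the 66 bases that it shares with the G6pdx window in capitals.
Ikbkg, chrX:74429065-74429364, plus strand: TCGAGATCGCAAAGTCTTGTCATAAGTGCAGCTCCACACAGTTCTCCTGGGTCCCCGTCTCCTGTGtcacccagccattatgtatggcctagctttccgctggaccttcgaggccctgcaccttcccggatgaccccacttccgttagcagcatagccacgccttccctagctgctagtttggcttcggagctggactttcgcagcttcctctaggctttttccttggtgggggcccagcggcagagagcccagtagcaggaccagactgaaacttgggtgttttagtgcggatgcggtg

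The 3 tested genes whose pattern over the 5 libraries was most like that of Ikbkg were Hspb11, Ccdc90b and Yaf2. Likeness was the root mean square difference of mean-centred log2 CPM, with 0.5 added to each CPM. The differences were 0.013, 0.024 and 0.025 on the log2 scale. Hspb11 was near the floor, at 0.769 and 0.842 CPM in KO libraries and at 1.03, 1.14 and 1.11 CPM in controls. Its edgeR log2 fold change was -0.43, beside -0.29 for Ikbkg, and the added 0.5 narrows differences at so low a level. Yaf2 was at 17.8 and 18.5 CPM in KO libraries and at 21.4, 22.1 and 22.6 CPM in controls. None of the 3 passed the test in edgeR, with adjusted p-values of 0.48 for Hspb11, 0.20 for Ccdc90b and 0.11 for Yaf2, so a pattern of this kind is also found in genes that are not called.

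**Figure D4:**
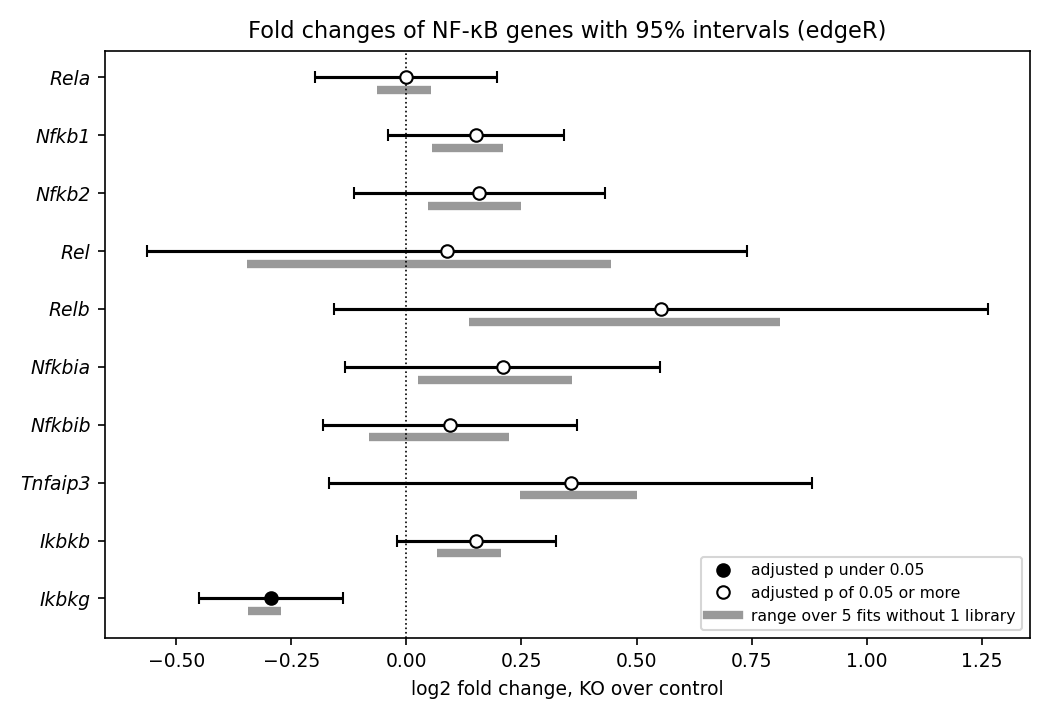
Log2 fold change, KO over control, of the 10 NF-κB genes with 95% intervals from edgeR; the filled point passed the test and grey bars span the 5 fits that each left out 1 library. The interval of Ikbkg, -0.45 to -0.14, is the one that stays clear of 0, and those of Rel, Relb and Tnfaip3 are the widest.

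Per length of principal transcript, the order of levels in both groups ran from Rela at the top to Rel at the bottom. In CPM per kb of principal transcript, KO and control means were 26.2 and 26.2 for Rela, 16.7 and 20.5 for Ikbkg, 19.6 and 17.7 for Ikbkb, 11.1 and 10.4 for Nfkbib. They were 10.7 and 9.64 for Nfkb1, 10.2 and 9.20 for Nfkb2, 4.61 and 3.97 for Nfkbia, 0.593 and 0.411 for Relb, 0.348 and 0.270 for Tnfaip3, and 0.212 and 0.195 for Rel. Ikbkb was above Ikbkg in both KO libraries and below it in the 3 controls. Nfkbib, Nfkb1 and Nfkb2 overlapped in both groups, and Relb overlapped with Tnfaip3, and Tnfaip3 with Rel, in the controls but not in the KO libraries. The order depends on the length used: per kb of all annotated exons the control means of Rela, Ikbkg, Ikbkb and Nfkb1 were 23.2, 17.1, 3.32 and 3.29 CPM per kb, and Tnfaip3, at 0.165, was below Rel, at 0.195.

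The rest of the pathway was read through 6 lists of genes by role. Among 14 further IκB proteins, IKK-related kinases and their partners, 1 fell and 0 rose, beside 1.83% and 5.15% of all genes; 4 had an unadjusted p under 0.05, beside 23.8% of all genes. Tab3, an adaptor that ties the kinase TAK1 to ubiquitin chains, was at 103 and 92.3 CPM in KO libraries and at 126, 119 and 124 CPM in controls. Both KO libraries were lower than every control, with a log2 fold change of -0.34 ± 0.08 (SE; edgeR adjusted p = 0.033). The adjusted p was 0.14, 0.097 and 0.13 without control replicate 1, 2 and 3 and 0.10 without KO replicate 2. The median of the list was 0.04.

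Of the other IκB family genes on this list none passed, and those that follow were picked after their values were seen. Nfkbie, for IκBε, was at 2.23 and 2.27 CPM in KO libraries and at 1.67, 1.14 and 1.32 CPM in controls (log2 fold change 0.69, edgeR adjusted p = 0.092). Nfkbid, for the nuclear protein IκBNS, was at 4.69 and 4.28 CPM in KO libraries and at 2.77, 2.36 and 3.33 CPM in controls (0.66, edgeR adjusted p = 0.068). Nfkbiz, for IκBζ, was at 3.54 and 2.92 CPM in KO libraries and at 2.44, 1.91 and 2.84 CPM in controls (0.41, edgeR adjusted p = 0.27). These 3 transcripts were each above every control in both KO libraries, an order that 21.9% of all tested genes show. Bcl3, a nuclear IκB protein, was at 1.23 and 1.49 CPM in KO libraries and at 1.03, 1.30 and 1.248 CPM in controls, and overlapped between the groups (0.21, edgeR adjusted p = 0.71). Nfkbil1, a gene with IκB-like repeats, was at 4.07 and 8.62 CPM in KO libraries and at 3.41, 3.89 and 4.16 CPM in controls, with KO replicate 2 alone standing apart (edgeR adjusted p = 0.15, 0.0038 without KO replicate 1 and 0.90 without KO replicate 2). It lies 98.1 kb from Csnk2b on chromosome 17, which was not tested as a source of its values.

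Of 18 receptor genes 11 were tested, and 0 rose and 0 fell in edgeR, beside 5.15% and 1.83% of all genes. An unadjusted edgeR p under 0.05 was found for 2, Ltbr and Il1rap, beside 23.8% of all genes. The highest CPM, not scaled by length, were those of the tumour necrosis factor receptors. Tnfrsf1a was at 11.1 and 12.1 CPM in KO libraries and at 11.97, 11.1 and 14.98 CPM in controls, and Tnfrsf1b at 13.5 and 10.6 CPM in KO and at 9.84, 9.60 and 11.8 CPM in controls. Both overlapped between the groups. Ltbr, the lymphotoxin receptor of the non-canonical branch, was at 10.3 and 11.3 CPM in KO libraries and at 7.91, 6.86 and 8.88 CPM in controls, above all controls but short of the threshold (log2 fold change 0.46 ± 0.15 SE, edgeR adjusted p = 0.097). Il1rap, for the accessory chain of the interleukin 1 receptor, was at 9.07 and 4.67 CPM in KO libraries and at 3.603, 4.42 and 4.02 CPM in controls, KO replicate 1 being the high library. Its log2 fold change was 0.76 ± 0.26 (SE; edgeR adjusted p = 0.12), 0.20 without KO replicate 1 and 1.17 with an adjusted p of 0.0065 without KO replicate 2. Tlr4, the receptor of bacterial lipopolysaccharide, was at 2.31 and 1.94 CPM in KO libraries and at 2.77, 2.82 and 2.98 CPM in controls, below all controls without passing (-0.43 ± 0.18 SE, edgeR adjusted p = 0.21). Ltbr, Il1rap and Tlr4 were picked after their values were seen.

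Ligand transcripts were scarce: 10 of 11 genes had means under 1 CPM in both groups, and Tnfsf14 and Il1a were the 2 that passed the filter. Of these, 0 rose and 0 fell in edgeR, beside 5.15% and 1.83% of all genes. An unadjusted edgeR p under 0.05 was found for 0 of them, beside 23.8% of all genes. Tnfsf14 was at 1.54 and 1.81 CPM in KO libraries and at 1.54, 1.14 and 1.66 CPM in controls, and Il1a at 0.615 and 0.972 CPM in KO and at 0.708, 1.07 and 1.18 CPM in controls. Tnf, the tumour necrosis factor gene 77.3 kb from Csnk2b, had 11 and 6 counts in KO libraries and 4, 3 and 3 counts in controls. These counts are too few for the filter, so Tnf was not tested.

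Among 23 adaptors and ubiquitin ligases tested, 1 rose and 1 fell, beside 5.15% and 1.83% of all genes. An unadjusted p under 0.05 was found for 9, beside 23.8% of all genes, and KO libraries lay above all controls in 8 and below them in 3, beside 21.9% and 19.3%. Rnf31, which encodes HOIP, the ligase that builds the linear ubiquitin chains NEMO binds, rose: it was at 59.6 and 62.5 CPM in KO libraries and at 40.2, 45.8 and 47.1 CPM in controls. Its log2 fold change was 0.46 ± 0.09 (SE; edgeR adjusted p = 0.016), with an adjusted p of 0.075 without control replicate 1 and 0.072 without control replicate 2. Its partners in the linear ubiquitin ligase did not pass. Rbck1 (HOIL-1) was at 180.0 and 174 CPM in KO libraries and at 137, 159.8 and 151 CPM in controls (edgeR adjusted p = 0.10), and Sharpin at 31.4 and 26.4 CPM in KO and at 28.5, 30.9 and 28.4 CPM in controls (0.92). Btrc, which encodes the β-TrCP protein that recognises phosphorylated IκB, fell: it was at 160.5 and 132 CPM in KO libraries and at 189.6, 195 and 194 CPM in controls. Its log2 fold change was -0.40 ± 0.09 (SE; edgeR adjusted p = 0.030), with an adjusted p of 0.11, 0.12 and 0.11 without control replicate 1, 2 and 3 and 0.067 without KO replicate 2.

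Among 16 deubiquitinases and other negative regulators tested, 1 rose and 1 fell, beside 5.15% and 1.83% of all genes, and 6 had an unadjusted p under 0.05, beside 23.8%. Usp18, a protease that removes ISG15 and is induced by interferon, was at 60.1 and 21.1 CPM in KO libraries and at 1.80, 2.90 and 1.80 CPM in controls, the KO libraries differing from each other by more than the whole control level. Its log2 fold change was 4.23 ± 0.44 (SE; edgeR adjusted p = 0.0015). Rnf11, a partner of A20 in its ubiquitin-editing complex, was at 120.2 and 102 CPM in KO libraries and at 176, 178 and 171 CPM in controls. It fell by 0.66 ± 0.08 (SE) in log2 units, at an edgeR adjusted p of 0.0031, and passed in each of the 5 fits that left out a library. Tnip1, for the A20-binding protein ABIN1, was at 18.4 and 21.9 CPM in KO libraries and at 14.4, 16.2 and 14.01 CPM in controls. It was above all controls but did not pass (log2 fold change 0.45, edgeR adjusted p = 0.058, and 0.014 without KO replicate 1).

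NF-κB target genes did not move one way. Of 35 listed, 20 were tested, 2 rose and 2 fell, beside 5.15% and 1.83% of all genes, and 8 had an unadjusted p under 0.05, beside 23.8%. The median log2 fold change was 0.05, beside 0.01 over all genes tested. Junb, an AP-1 subunit, was at 12.99 and 15.6 CPM in KO libraries and at 8.56, 9.07 and 9.22 CPM in controls (log2 fold change 0.68 ± 0.13 SE, edgeR adjusted p = 0.016). Ccnd1, for cyclin D1, was at 21.4 and 24.6 CPM in KO libraries and at 17.0, 12.96 and 14.9 CPM in controls (0.62 ± 0.13 SE, edgeR adjusted p = 0.025). These are the targets that rose, and both are also driven by other pathways. Vcam1, an adhesion molecule, was at 4.69 and 4.21 CPM in KO libraries and at 7.59, 7.16 and 8.11 CPM in controls (-0.78 ± 0.15 SE, edgeR adjusted p = 0.017). Vcam1 is also on the macrophage list, whose 13 tested genes all had fold changes below 1; the part of macrophage RNA in its decrease was not tested. Ier3, a short-lived regulator of survival, was at 15.8 and 12.4 CPM in KO libraries and at 19.0, 22.5 and 20.0 CPM in controls (-0.55 ± 0.13 SE, edgeR adjusted p = 0.042). It lies 699.6 kb from Csnk2b. Without 1 control, all 4 missed the threshold in at least 2 of the 3 fits, with adjusted p-values of up to 0.089 for Junb, 0.094 for Ccnd1, 0.080 for Vcam1 and 0.15 for Ier3. The adjusted p was 0.069, 0.11, 0.068 and 0.16 for these genes without KO replicate 2.

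The classic inflammatory targets were scarce in both groups. Of the 35 targets 15 had means under 1 CPM in both groups, among them Il6, Cxcl1, Cxcl2, Ccl2, Ccl5, Ptgs2 and Nos2. Ccl20 and Csf2 had 0 counts in every library, which does not exclude a level too low to be counted at this depth. Gadd45b and Cxcl10 were also among the 15. Gadd45b had 7 and 18 counts in KO libraries and 4, 1 and 1 counts in controls. It lay above all controls in CPM, an order that 21.9% of all tested genes show. Cxcl10 had 14 and 7 counts in KO libraries and 8, 6 and 6 counts in controls, and overlapped in CPM. Neither passed the filter, so neither was tested. The targets with the highest CPM, not scaled by length, were Bcl2l1, the survival gene of maturing erythroblasts, and Tnfaip2. Bcl2l1 was at 424 and 405 CPM in KO libraries and at 405, 477 and 465 CPM in controls, and Tnfaip2 at 441 and 414 CPM in KO and at 426, 480 and 466 CPM in controls. Neither passed (edgeR adjusted p = 0.49 and 0.52), and both overlapped between the groups. Icam1, a direct target in many cells, was at 7.99 and 6.22 CPM in KO libraries and at 4.76, 4.19 and 4.92 CPM in controls, with a log2 fold change of 0.61 ± 0.17 (SE; edgeR adjusted p = 0.062, and 0.042 without KO replicate 2).

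**Figure D5:**
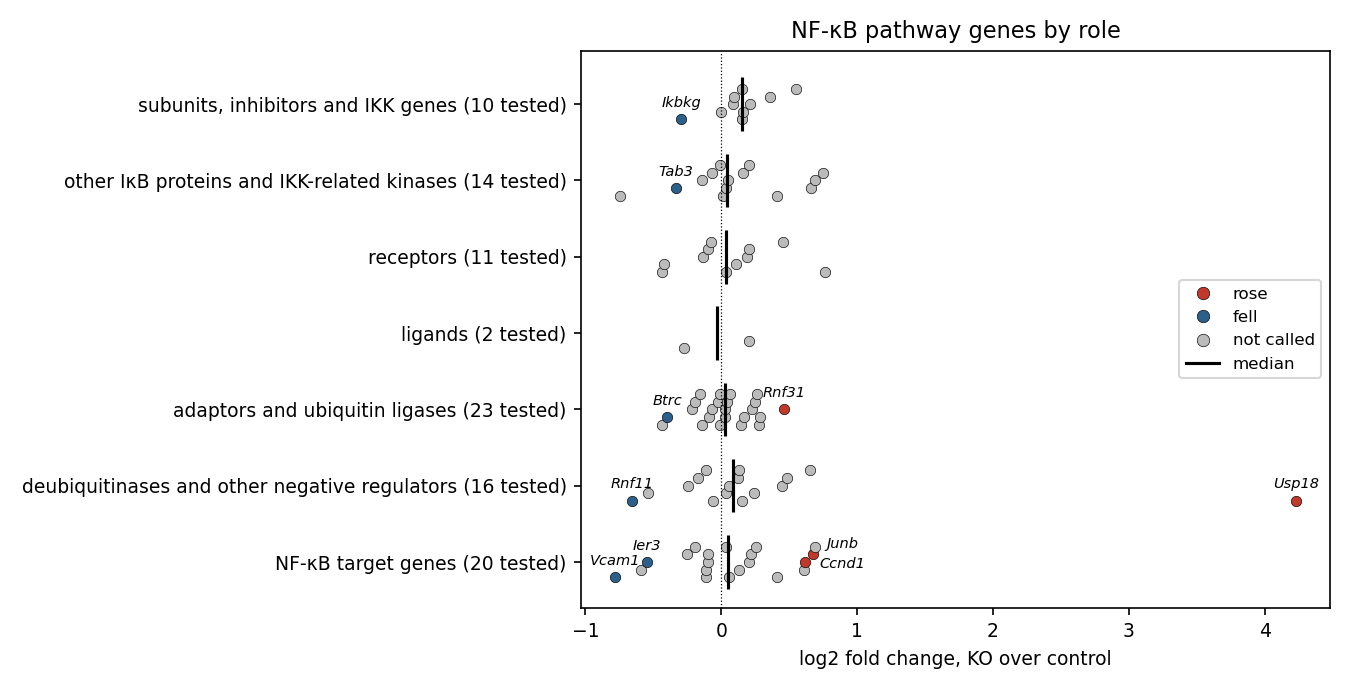
Log2 fold change, KO over control, of each tested gene in 7 lists of NF-κB pathway genes; red points rose, blue points fell and grey points were not called at an edgeR adjusted p below 0.05, and black lines are list medians. The list medians lie between -0.03 and 0.15, and each list with called genes holds at most 4 of them.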

How the data were processed

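RNA was measured in 5 libraries, 2 KO and 3 control, grouped by their titles. Per the labels' protocols, TER119-stained cells were sorted, mRNA was isolated and sequencing was by Ion Proton. HTSeq, STAR, Bowtie and cutadapt and the mm10 build are named per the submitters' processing notes, with no version or strand setting. The deposited values are whole-number counts per gene, not normalised by the authors.

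Differences were tested with the quasi-likelihood test of edgeR 4.0.16 (R 4.3.3) after TMM scaling. Genes were kept by filterByExpr, the design held the group alone, and p-values of the 13000 genes left were adjusted together (Benjamini-Hochberg, threshold 0.05). Standard errors are the fold change divided by the root of F, and 95% intervals from the t quantile. The steps were tested on simulated data with known changes. The edgeR test called 2.70% of genes given a log2 change of 0.25 and 43.9% of those given 0.5. There were 3 simulations, each with 200 of 13000 genes changed, drawn at random, so the called shares are averages over genes of all levels. A gene that was not called here may therefore still differ by 0.25 or 0.5 on the log2 scale. Of all calls in the simulations, 9.04% were of unchanged genes. That share depends on how many genes were changed, so it is not an estimate for the calls made here. Read counts carry no molecular identifiers, so depth limits precision and intervals cover no shared library error.

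The members, lists and tests were chosen with earlier results of these data known. Named genes were the 10 members, up to 4 genes past the threshold per list or else the 2 most abundant, Csnk2b, and the 3 genes most like Ikbkg. Named after their values were seen were G6pdx, Psd, Sirt2, Ccer2, Chuk, Nfkbie, Nfkbid, Nfkbiz, Nfkbil1, Rbck1, Sharpin, Tnip1, Icam1, Ltbr, Il1rap, Tlr4, Bcl3, Tnf, Bcl2l1, Tnfaip2, the marker genes and the targets given as low. Alternatives were RLE and upper-quartile scaling, no filter, at least 5 CPM in 2 libraries, DESeq2 1.42.0, limma-voom 3.58.1, the replicate number as a block and each library left out. GENCODE M21 (GRCm38, equal to mm10) gave lengths and coordinates.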

Additional observations from a re-analysis of the deposited data

How the results depend on the processing

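Every number here compares KO with control. Ikbkg kept its direction in 12 of 12 alternatives, with log2 fold changes of -0.34 to -0.27 and edgeR, DESeq2 or limma adjusted p-values of 0.023 to 0.15, and passed the threshold in 7. Among the 10 genes the count that fell was 0 with no filter on low counts, 0 with the replicate block and 0 to 1 over the fits that left out 1 library, and the count that rose stayed 0 in the alternatives run. With no filter, which tests 21077 genes, the counts were 0 fell for the IκB and IKK-related list, 0 rose and 0 fell for the adaptors, and 0 rose and 1 fell for the targets. Over the fits that left out 1 library, the counts that rose and fell ran 0 to 1 and 0 to 2 for the IκB and IKK-related list, 0 to 1 and 0 to 0 for receptors, 0 to 1 and 0 to 2 for adaptors, 1 to 3 and 1 to 2 for negative regulators, and 0 to 4 and 0 to 3 for targets. Over all genes, 669 rose and 238 fell; the counts were 235 and 53 with no filter, 230 and 53, 210 and 31, and 339 and 61 without control replicate 1, 2 and 3, 1709 and 1247 without KO replicate 1, and 535 and 101 without KO replicate 2. Where 1 KO library remained, it is assumed to vary like the controls. Apart from the fewer libraries or more genes tested, the cause was not tested.

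Genes near 0 changed sign. Rela was 0.00080 with no filter and 0.0036 with limma-voom, and ran -0.064 to 0.054 over the leave-one-out fits. These fits gave -0.35 to 0.44 for Rel, -0.082 to 0.22 for Nfkbib, -0.22 to 0.0058 for Tnfrsf1a, -0.0018 to 0.37 for Tnfrsf1b and -0.17 to 0.10 for Sharpin.

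Whether the replicate numbers pair the libraries cannot be told from these data. Deviations of same-numbered libraries from their group means correlated at 0.0096 and 0.056 over 13000 genes. There were 2 pairs, and the deviations of 2 KO libraries mirror each other, so these values cannot decide it. With the replicate block, 702 genes rose and 171 fell, 0 of the 10 genes fell, 0 of the IκB and IKK-related genes fell, Ikbkg was at -0.29 on the log2 scale with an edgeR adjusted p of 0.11, Rela was 0.011 and Tnfrsf1a 0.0063. Rel, Relb and Tnfaip3, with 9 to 26 counts per library, are limited by depth.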
